A study of Mus musculus with 23 samples.

Results

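The genes of oxidative phosphorylation were taken from an RNA-seq table of mouse β-cell lines, as every gene whose symbol starts with Nduf, Sdha to Sdhd, Uqcr, Cox4 to Cox8 or Atp5, or with mt-Nd, mt-Co, mt-Cytb or mt-Atp. The rule took 103 of 20599 genes, 90 of them nuclear and 13 mitochondrial, after 3 pseudogenes (*Ndufs6b*, *Atp5l2-ps* and *Cox6c2*) were left out. Of the nuclear members, 75 encode subunits, 5 encode tissue isoforms of complex IV subunits (*Cox4i2*, *Cox6a2*, *Cox6b2*, *Cox7a1* and *Ndufa4l2*), and 10 encode factors that carry the same name stem, namely the assembly factors *Ndufaf1* to *Ndufaf8*, *Cox7a2l* and *Atp5s*. *Cox7b2*, *Cox8b* and *Cox8c*, which carry the same stems, were not analysed here.

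The libraries came from β-TC6, an insulinoma line of transgenic mice that secretes insulin. Untreated cells were compared as WT (no edit), *Bmal1*-/- (exon 8 of *Bmal1* removed with CRISPR–Cas9) and *Clock*-/- (exons 6 and 7 of *Clock* removed), with 3 libraries each. Each knockout was grown from a hand-picked colony under a drug (G418 for *Bmal1*, puromycin for *Clock*), so the genotype, the clone and its selection cannot be told apart. The libraries of a group came from separate wells, and p-values measure the spread between wells. BMAL1 and CLOCK form the activator pair of the circadian clock, and the study asked what their loss does to RNA in β cells.

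Oxidative phosphorylation is the last stage of respiration. Complexes I to IV of the inner mitochondrial membrane pass electrons from NADH and succinate to oxygen. All of them but complex II also pump protons, and complex V, the ATP synthase, uses the proton gradient to make ATP. Most subunits are encoded in the nucleus and imported, whereas the mitochondrial genome encodes a small core of complexes I, III, IV and V, so that both genomes contribute to each of these complexes. In β cells, ATP made this way closes potassium channels and sets off insulin release.

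Levels are TPM (a transcript's share of the library's mRNA after scaling for gene length) as the authors computed them, and a change is a log2 fold change of TPM + 1 with its standard error (SE). Genes are said to rise or fall only at an adjusted p under 0.01 in limma over all 15031 genes tested, a number that includes all 103 members. *Cox4i2* was among them only through its level in *Clock*-/-, since a gene needed 1 TPM in 3 libraries. TPM keeps no read count, so the depth behind each value is unknown, and fewer cells of a type and less RNA per cell cannot be told apart. β-cell markers were present throughout, with *Ins2*, *Iapp* and *Chga* at no less than 2598 TPM, although *Ucn3*, a marker of mature β cells, stayed at or below 1.85 TPM and *Ins1* was at 57.7 to 64.0 TPM in *Clock*-/- against 2277 to 2359 in WT. The 12 β-cell markers summed to 59757 to 62216 TPM in WT cells, 43757 to 47124 in *Bmal1*-/- cells and 37407 to 43280 in *Clock*-/- cells. In *Bmal1*-/- 2 rose and 5 fell, beside 18.4% and 21.0% of all genes tested. In *Clock*-/- 4 rose and 6 fell, beside 9.50% and 14.4%. The part of this shift in the results below was not tested. The leukocyte markers *Ptprc* and *Adgre1* were at most 0.125 and 0.311 TPM in any library. *Cd68*, a macrophage marker and the 1 gene of the fibroblast, endothelial and blood list that was tested, fell from 8.71 to 9.64 TPM in WT cells to 1.18 to 1.31 in *Bmal1*-/- cells (−2.17) and rose to 20.9 to 22.2 in *Clock*-/- cells (1.17). The edits remove part of each transcript. *Arntl*, the annotation's name for *Bmal1*, did not pass the test in *Bmal1*-/- (log2 fold change −0.11, adjusted p = 0.539). *Clock* did not in *Clock*-/- (−0.33, adjusted p = 0.137), so whole-gene TPM of the edited gene does not check the label of either knockout. *Arntl* did rise in *Clock*-/-, from 3.52 to 4.22 TPM in WT to 10.6 to 16.2 (1.57, adjusted p = 3.09e-05).

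*Nuclear members were higher in sum in both knockouts.* The 90 nuclear members took 2.63% to 2.86% of all TPM in WT, 2.98% to 3.15% in *Bmal1*-/- and 2.98% to 3.91% in *Clock*-/-. Their summed TPM was 26332, 26847 and 28639 in the WT libraries, 31534, 29855 and 29784 in *Bmal1*-/-, and 34046, 39142 and 29790 in *Clock*-/-. Neither knockout overlapped WT, and the sum was 1.11 times that of WT in *Bmal1*-/- and 1.25 times in *Clock*-/-. The exact permutation test, 2-sided, gave p = 0.1 for both, the smallest value that 3 against 3 libraries allow. The *Clock*-/- libraries were spread widely, and 80 of 90 nuclear members were higher in *Clock*-/- library 2 than in library 3, with a median log2 difference of 0.38. Over the other genes this difference was 0.13 at the median for those with exons as short as the members' median of 1631 bases or shorter, and −0.24 for longer genes; the part of gene length in the members' spread was not tested.

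**Figure D1:**
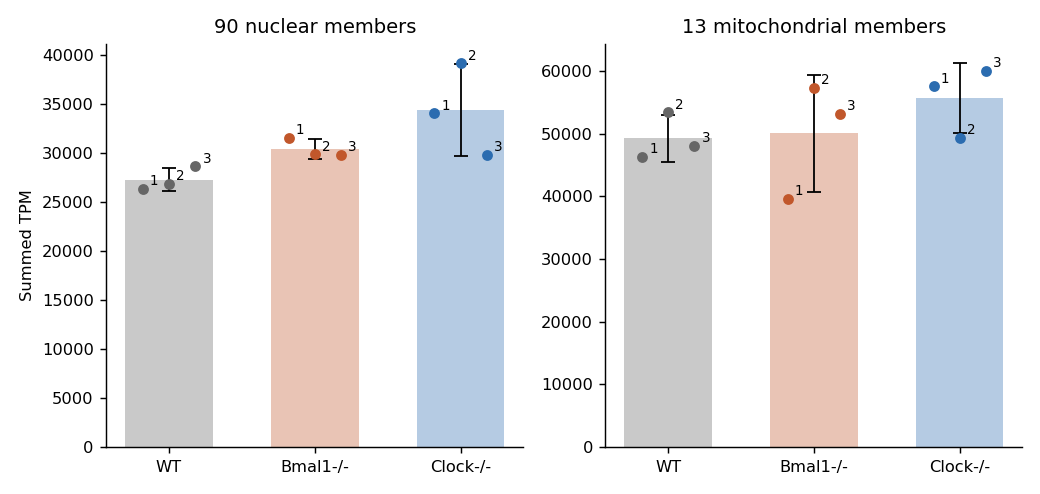
Summed TPM of the 90 nuclear (left) and 13 mitochondrial (right) members in each library, with bars at the group mean, error bars of 1 SD (n = 3) and points numbered by replicate. All 6 knockout libraries lie above the highest WT library (28639) for nuclear members, whereas the groups overlap for mitochondrial members.

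By complex, the sums differed in which knockout departed from WT. The 36 nuclear subunits of complex I, the NADH dehydrogenase, summed to 9112 to 10154 TPM in WT, 9654 to 10113 in *Bmal1*-/- and 10817 to 14392 in *Clock*-/-, so that the *Clock*-/- libraries were apart from WT and the *Bmal1*-/- libraries lay within its range. The 11 nuclear subunits of complex IV, the cytochrome c oxidase, summed to 6817 to 7694 TPM in WT, 8261 to 9348 in *Bmal1*-/- and 7777 to 10437 in *Clock*-/-. The 8 nuclear subunits of complex III that the rule takes summed to 2912 to 3126 TPM in WT cells. Apart from these, they summed to 3290 to 3346 in *Bmal1*-/- cells and 3218 to 4255 in *Clock*-/- cells. This sum leaves out *Cyc1*, a nuclear subunit of complex III whose symbol the rule does not take. *Cyc1* was at 447 to 474 TPM in WT and lower in both knockouts (297 to 322 in *Bmal1*-/-, 362 to 396 in *Clock*-/-). The gap to WT is thus that of the 8 members alone, not of the whole complex. The 16 subunits of complex V were at 6047 to 6257, 6776 to 7048 and 6243 to 8047 TPM, where the lowest *Clock*-/- library fell inside the WT range. The 4 subunits of complex II, the succinate dehydrogenase, had the smallest sum, 687 to 720 TPM in WT, and were at 813 to 874 in *Bmal1*-/- and 803 to 887 in *Clock*-/-.

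In *Bmal1*-/- cells, 14 of 90 nuclear members rose and 7 fell, where 18.4% of all genes tested rose and 21.0% fell. The members' shares were 15.6% and 7.78%, and in either direction 39.4% of all genes passed. In *Clock*-/- cells, 21 rose and 2 fell, or 23.3% and 2.22% of the members, beside 9.50% and 14.4% of all genes. Both comparisons use the same WT libraries. The median log2 fold change of the nuclear members was 0.10 in *Bmal1*-/- and 0.28 in *Clock*-/-, beside −0.04 and −0.02 over all genes tested. The TPM of 59 members in *Bmal1*-/- and of 49 in *Clock*-/- did not overlap that of WT, as it did not for 67.1% and 46.5% of all genes tested.

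These counts moved with single libraries. The shares of all genes tested are not given for alternative fits, here or below, so such moves are not read as particular to the members. The 21 rises in *Clock*-/- became 41 without *Clock*-/- library 3, 10 without *Clock*-/- library 1, and 9 without WT library 1 or WT library 2, and the 2 falls became 0 to 3. In *Bmal1*-/-, the 14 rises became 24 without *Clock*-/- library 2, which enters only through the shared estimate of the spread, and 8 or 9 without *Bmal1*-/- library 1 or 3 or WT library 1 or 2, while the 7 falls became 16 without *Clock*-/- library 2 and 14 without library 3.

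**Figure D2:**
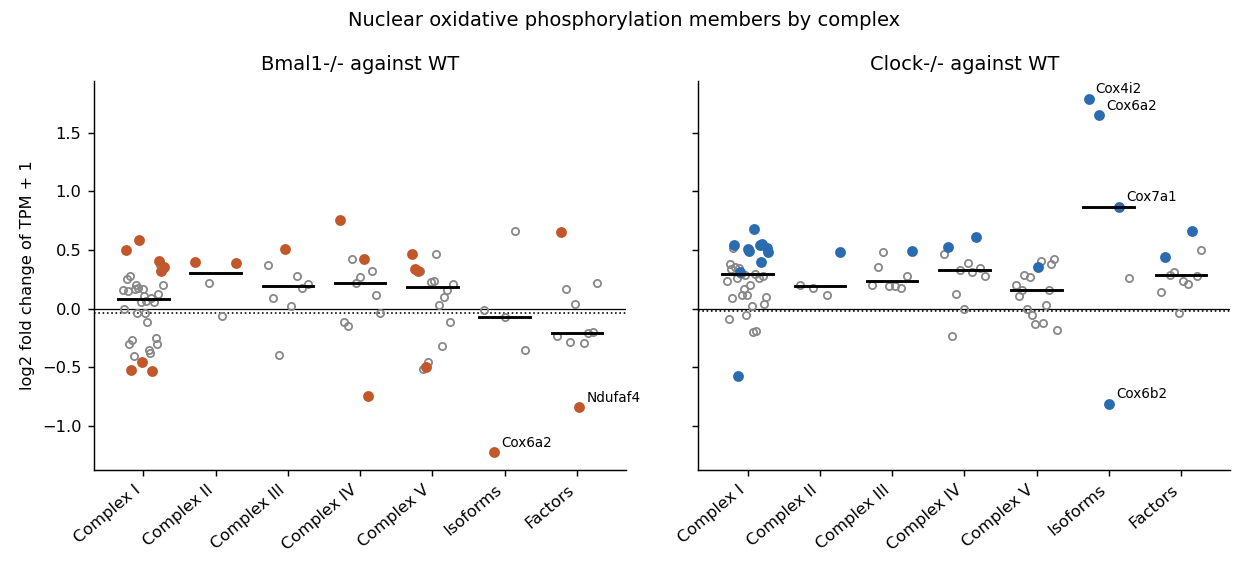
Log2 fold change of TPM + 1 against WT of each nuclear member in *Bmal1*-/- (left) and *Clock*-/- (right), as the fit gives it, by complex for subunits and apart for isoforms and factors. Filled points passed an adjusted p of 0.01, short lines are medians and the dotted line is the median of all genes tested, medians are over all members, and 1 member is not drawn. In *Clock*-/-, *Cox4i2* (1.79) and *Cox6a2* (1.65) stand highest among those drawn.

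Complex I held 11 of the 21 rises in *Clock*-/- and 5 of the 14 in *Bmal1*-/-. These were 30.6% and 13.9% of its 36 nuclear subunits, beside 9.50% and 18.4% of all genes tested. *Ndufc1*, a small accessory subunit of the membrane arm, lay at 112 to 122 TPM in WT cells, 81.6 to 93.8 in *Bmal1*-/- and 155 to 219 in *Clock*-/-. The groups did not overlap, and it rose in *Clock*-/- (0.68, SE 0.11, adjusted p = 0.00129) and had −0.38 in *Bmal1*-/- (adjusted p = 0.0192). *Ndufs6*, an accessory subunit near the flavin, had 0.55 in *Clock*-/- (adjusted p = 0.00642), a call that 12 of 19 alternative settings lost. *Ndufv3*, *Ndufs4*, *Ndufv2* and *Ndufb5* rose by 0.48 to 0.54 in *Clock*-/-.

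In *Bmal1*-/-, *Ndufb11*, an accessory membrane subunit encoded on the X chromosome, was at 1043, 980 and 966 TPM against 645, 661 and 679 in WT (0.59, SE 0.08, adjusted p = 2.28e-04). *Ndufa11*, another accessory membrane subunit, went from 69.1 to 70.5 TPM in WT to 91.3 to 111 in *Bmal1*-/- (0.50, adjusted p = 0.00265). *Ndufs7*, a core subunit that holds an iron–sulfur cluster, rose by 0.41 (adjusted p = 0.00651, lost in 10 of 19). In all 3, no *Bmal1*-/- library overlapped WT.

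In complex I, 3 of 36 nuclear subunits (8.33%) fell in *Bmal1*-/-, where 21.0% of all genes tested fell. *Ndufs1*, the largest subunit and carrier of several iron–sulfur clusters, measured 67.5 to 78.1 TPM in WT wells and 48.3 to 50.9 in *Bmal1*-/- (−0.53, SE 0.07, adjusted p = 2.34e-04). *Ndufa5*, an accessory subunit of the matrix arm, was at 236 to 272 and 166 to 177 TPM (−0.52, adjusted p = 0.00933, lost in 13 of 19 alternative settings). *Ndufb3*, an accessory membrane subunit, was at 405 to 428 and 297 to 310 TPM (−0.45, adjusted p = 0.00753, lost in 12 of 19). *Ndufs1* and *Ndufb3* lie on chromosome 1, where the median log2 fold change over 932 genes was −0.35 in *Bmal1*-/- and −0.25 in *Clock*-/-. After subtraction of that median, *Ndufs1* was at −0.17 (adjusted p = 0.0739) and *Ndufb3* at −0.09 (adjusted p = 0.513), so neither passed.

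*Ndufa7*, an accessory subunit of the matrix arm, was the only subunit that fell in *Clock*-/-. It measured 222, 238 and 241 TPM in the WT libraries, against 190, 167 and 174 in *Bmal1*-/- cells and 157, 186 and 132 in *Clock*-/- cells. All 6 knockout libraries were below WT, with log2 fold changes of −0.57 (SE 0.11, adjusted p = 0.00276) in *Clock*-/- and −0.40 (adjusted p = 0.0117) in *Bmal1*-/-. The *Clock*-/- call was lost in 4 of 19 alternative settings, where adjusted p reached 0.0205. *Rps28*, a cytosolic ribosomal protein gene that begins 10 bases away on the opposite strand, also fell in *Clock*-/- (−0.73, adjusted p = 0.00341).

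*Ndufa7* also stood apart in the promoter data. It was the only member with a peak of THRAP3, an RNA-binding protein and clock coactivator, in both WT ChIP-seq lists, and it had none in either *Bmal1*-/- list. Of the 14943 nuclear genes tested, 14 (0.0937%) had this pattern. The peaks were at chr17:33824382-33824594 in WT list 1 and chr17:33824492-33824714 in WT list 2, each with a HOMER score of 12, where the lowest scores in these lists were 12 and 11. Its promoter, from 250 bases before to 50 after a RefSeq start, on the plus strand at chr17:33824322-33824621 of GRCm38.p6, is shown because both peaks cover the E-box it holds. E-box is the site that CLOCK and BMAL1 bind, and capitals mark its letters CACGTG at chr17:33824500-33824505.

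Ndufa7 promoter: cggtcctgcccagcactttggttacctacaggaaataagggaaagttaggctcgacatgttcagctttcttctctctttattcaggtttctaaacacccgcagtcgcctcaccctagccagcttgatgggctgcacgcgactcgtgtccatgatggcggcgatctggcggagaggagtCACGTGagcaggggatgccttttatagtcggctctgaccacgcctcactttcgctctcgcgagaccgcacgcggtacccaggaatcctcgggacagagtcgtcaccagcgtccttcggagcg

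The stretch also begins the *Rps28* gene on the other strand. An E-box was found in the promoters of 5 of 72 members with a RefSeq promoter (*Ndufa7*, *Ndufv1*, *Atp5g1*, *Atp5g3* and *Atp5l*). *Ndufa7* has it in both of its promoters, which share the site, so 6 of 77 member promoters (7.79%) held one, beside 7.15% of all 32851 promoters of the same length. Among the 13213 promoters of genes tested the share was 9.85%. Other motifs known from respiratory genes were also counted. The core of the NRF1 site (GCATGCG) was in 16.9% of member promoters, 3.58% of all and 6.30% of those of genes tested. The ETS core (CCGGAAG) was in 23.4%, 8.86% and 16.9%, and the YY1 core (AAGATGG) in 14.3%, 6.34% and 6.82%. Matches were counted on both strands, and the ones to 2 motifs can overlap.

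THRAP3 peaks lay within 1000 bases of a start of 34 of 90 nuclear members in at least 1 list. WT list 1 touched 1 member, WT list 2 touched 8, and the *Bmal1*-/- lists 21 and 15. These were 1.11%, 8.89%, 23.3% and 16.7% of members, each below the share of all genes tested in the same list (1.47%, 13.6%, 33.9% and 28.5%). The lists differ in size, with 808, 6128, 12949 and 12226 peaks, so their counts were not compared. Both *Bmal1*-/- lists had a peak at 10 members (11.1%, beside 19.2% of all genes), among them *Ndufb11*, *Ndufv2*, *Ndufa4* and *Atp5e*, and none of the 10 had one in a WT list. The same held for 67.7% of all genes tested with a peak in both *Bmal1*-/- lists.

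Among the complex I assembly factors, *Ndufaf4* fell in *Bmal1*-/- and *Ndufaf6* rose in *Clock*-/-. *Ndufaf4* had a TPM of 44.6, 39.5 and 34.2 in the WT wells, of 19.5, 23.0 and 22.2 in those of *Bmal1*-/- and of 50.0, 44.5 and 44.8 in those of *Clock*-/-. *Bmal1*-/- libraries were all below the others, with −0.84 (SE 0.11, adjusted p = 1.29e-04). *Ndufaf6* lay at 27.6 to 32.1 TPM in WT cells, 24.0 to 28.7 in *Bmal1*-/- and 47.7 to 48.4 in *Clock*-/- (0.66, adjusted p = 2.75e-04). *Ndufaf2*, *Ndufaf4*, *Ndufaf5*, *Ndufaf6* and *Ndufaf7* were all lower in *Bmal1*-/- than in *Clock*-/- in the direct test (log2 differences −0.49 to −1.07), as were 21.8% of all genes tested. *Ndufaf1* (−0.12), *Ndufaf3* (0.08) and *Ndufaf8* (−0.28) did not pass it. The *Ndufaf4* promoter is shown because it carries the NRF1 core at 2 places, in capitals, on the plus strand at chr4:24897833-24898132 of GRCm38.p6. At the first place the core reads on both strands.

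Ndufaf4 promoter: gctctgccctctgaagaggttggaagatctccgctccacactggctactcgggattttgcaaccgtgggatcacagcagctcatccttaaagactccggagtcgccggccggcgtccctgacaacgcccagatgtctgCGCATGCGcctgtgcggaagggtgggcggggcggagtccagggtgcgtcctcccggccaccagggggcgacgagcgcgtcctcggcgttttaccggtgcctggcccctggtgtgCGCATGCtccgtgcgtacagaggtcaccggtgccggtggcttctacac

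**Figure D3:**
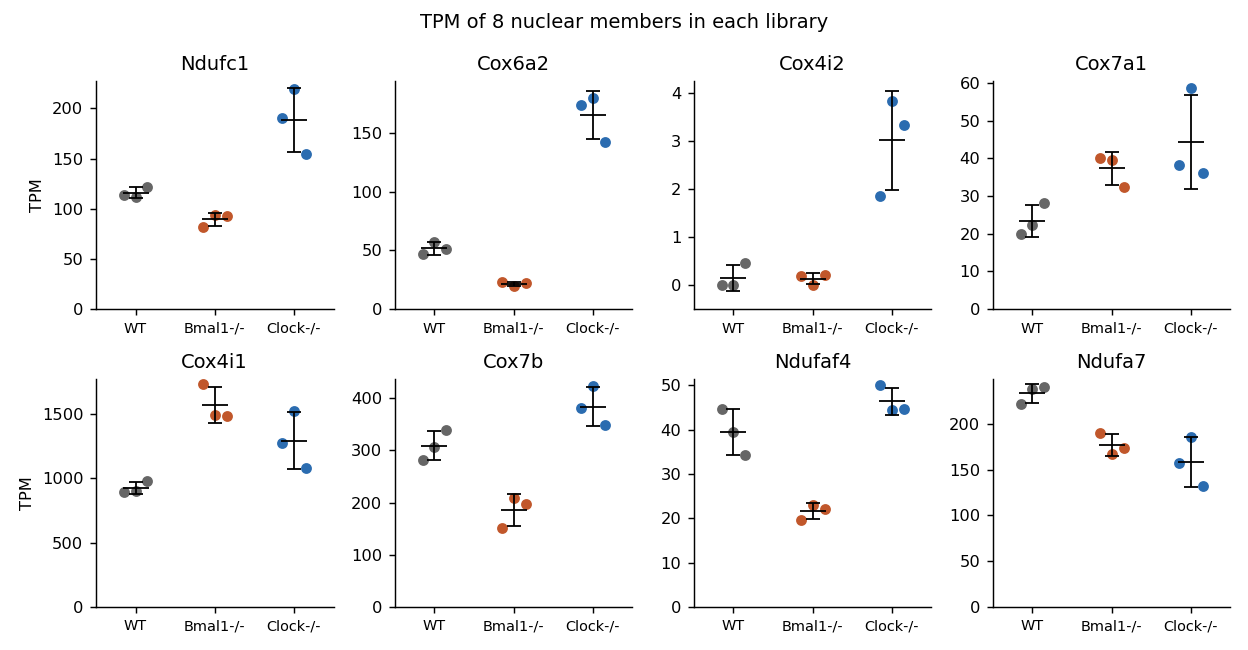
TPM of 8 nuclear members in each library, with means and error bars of 1 SD (n = 3). *Ndufc1* and *Cox4i2* are higher in every *Clock*-/- library than in the other groups, *Cox6a2* is low in *Bmal1*-/- and high in *Clock*-/-, and *Ndufa7* is below WT in both knockouts.

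Of the 5 tissue isoforms of complex IV, 1 fell in *Bmal1*-/-, and 3 rose and 1 fell in *Clock*-/-, with medians of −0.07 and 0.87. Among the 3 is *Cox4i2*, which entered the test only through its *Clock*-/- libraries, so the *Clock*-/- count and median are a description. Over all genes tested, 18.4% rose and 21.0% fell in *Bmal1*-/-, and 9.50% rose and 14.4% fell in *Clock*-/-. Of the 11 common subunits, 2 rose and 1 fell in *Bmal1*-/- and 2 rose in *Clock*-/-, with medians of 0.22 and 0.33. *Cox6a2*, the heart and muscle form of subunit VIa, was the only member that passed the test in opposite directions in the knockouts. It measured 46.7, 57.5 and 51.0 TPM in the WT libraries, against 23.2, 19.6 and 21.8 in *Bmal1*-/- cells and 174, 180 and 142 in *Clock*-/- cells, and the groups were apart. It fell in *Bmal1*-/- (−1.22, SE 0.11, adjusted p = 1.50e-05) and rose in *Clock*-/- (1.65, SE 0.11, adjusted p = 3.53e-06). As a share of both forms together it made up 3.46% to 4.56% in WT, 1.20% to 1.34% in *Bmal1*-/- and 9.67% to 11.4% in *Clock*-/-. *Cox6a1*, the common form, measured 1190 to 1424 TPM in WT cells and passed in neither knockout.

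*Cox6a2* lies on the minus strand at chr7:128205435-128206387 (mm10, as for every gene position here), and its neighbours were looked at after its values were seen. *4931431B13Rik*, 2107 bases away, lay at 1.78 to 3.68 TPM in WT wells, 0.343 to 0.883 in *Bmal1*-/- and 10.8 to 11.9 in *Clock*-/-. *Gm44850*, 9229 bases away, was at 15.9 to 21.2, 7.49 to 7.68 and 55.1 to 61.3 TPM. Both fell in *Bmal1*-/- (−1.11 and −1.17) and rose in *Clock*-/- (1.87 and 1.59), while *9130023H24Rik*, 28071 bases away, rose in *Clock*-/- (0.54) and had −0.18 in *Bmal1*-/- (adjusted p = 0.204). Of the markers of other endocrine cells, 4 were tested, and *Gcg* and *Sst* fell in *Bmal1*-/- and rose in *Clock*-/-, with glucagon (*Gcg*) at 462 to 493 TPM in WT, 49.4 to 53.9 in *Bmal1*-/- and 1155 to 1308 in *Clock*-/-, and somatostatin (*Sst*) at 82.9 to 92.9, 16.8 to 22.8 and 287 to 373 TPM. *Ttr* rose in *Clock*-/- (0.59) and had −0.41 in *Bmal1*-/- (adjusted p = 0.0127), while *Irx2* rose in *Bmal1*-/-, from 10.9 to 12 TPM in WT cells to 32.5 to 35 (1.47), and had 0.34 in *Clock*-/- (adjusted p = 0.0252). The sum of the 7 listed markers of those cells was 2851 to 2951 TPM in WT, 1609 to 2139 in *Bmal1*-/- and 4618 to 5397 in *Clock*-/-; their part in the isoform changes was not tested.

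**Figure D4:**
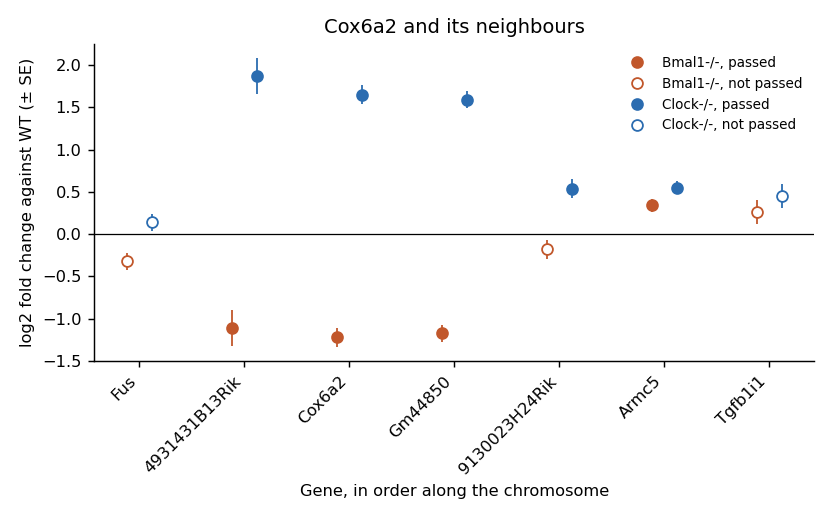
Log2 fold change against WT (± SE) of *Cox6a2* and its tested neighbours in chromosome order, in *Bmal1*-/- and *Clock*-/-, with filled points for genes that passed. *4931431B13Rik*, *Cox6a2* and *Gm44850* fell in *Bmal1*-/- and rose in *Clock*-/-.

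*Cox4i2*, the lung form of subunit IV that is known to respond to low oxygen, was listed at 0, 0 and 0.463 TPM in the WT wells, at 0.179, 0 and 0.209 in *Bmal1*-/- cells and at 1.86, 3.84 and 3.33 in *Clock*-/- cells. The log2 difference was 1.79 in *Clock*-/-, on a scale that understates changes of low genes. Since only its *Clock*-/- libraries brought it past the filter, this is a description, although it counts among the 21 rises. It reached at most 0.306% of the subunit IV transcripts. *Cox4i1*, the common form, had a TPM of 893, 899 and 978 in the WT wells, of 1732, 1491 and 1484 in those of *Bmal1*-/- and of 1272, 1522 and 1084 in those of *Clock*-/-. All knockout libraries were above WT, and it had the largest rise among nuclear members in *Bmal1*-/- (0.76, SE 0.12, adjusted p = 4.10e-04), with 0.47 in *Clock*-/- (adjusted p = 0.0104).

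*Cox7a1*, the heart and muscle form of subunit VIIa, measured 19.9, 22.3 and 28.0 TPM in the WT libraries, against 40.1, 39.5 and 32.3 in *Bmal1*-/- cells and 38.1, 58.5 and 36.2 in *Clock*-/- cells. It rose in *Clock*-/- (0.87, SE 0.19, adjusted p = 0.00478) and had 0.66 in *Bmal1*-/- (adjusted p = 0.0135), with every knockout library above WT. *Cox7a2*, its common form, rose in *Bmal1*-/- (0.42, adjusted p = 0.00995, lost in 13 of 19 alternative settings) and had 0.39 in *Clock*-/- (adjusted p = 0.0190). *Cox6b2*, the testis form of subunit VIb, measured 2.30 to 3.44 TPM in WT cells and 0.882 to 1.64 in *Clock*-/-, where it fell (−0.81, adjusted p = 0.00730), a call lost in 12 of 18 alternative settings. *Ndufa4l2*, a relative of the complex IV subunit *Ndufa4*, stayed at or below 1.26 TPM, and neither it nor *Ndufa4* nor *Cox6b1* nor *Cox8a* passed in either knockout.

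*Cox7a2l*, which tethers complexes III and IV in supercomplexes, rose in both knockouts. It lay at 313, 314 and 326 TPM in WT cells, 471, 517 and 513 in *Bmal1*-/- (0.65, adjusted p = 7.31e-05), and 448, 464 and 385 in *Clock*-/- (0.44, adjusted p = 0.00152). Only *Ndufv3* and *Sdhd*, a membrane anchor of complex II, shared this pattern among nuclear members. *Sdhd* went from 199 to 218 TPM in WT to 264 to 282 in *Bmal1*-/- and 272 to 305 in *Clock*-/- (0.39 and 0.48). No nuclear member fell in both.

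*Cox7b*, a small subunit encoded on the X chromosome, went the other way in *Bmal1*-/-. It had a TPM of 282, 307 and 339 in the WT wells, of 151, 209 and 197 in those of *Bmal1*-/- and of 381, 424 and 348 in those of *Clock*-/-. It fell in *Bmal1*-/- (−0.74, SE 0.13, adjusted p = 7.82e-04) and had 0.31 in *Clock*-/- (adjusted p = 0.0786). *Cox7c* rose in *Clock*-/- (0.61, adjusted p = 0.00634, lost in 12 of 19 alternative settings), and *Cox5a* likewise (0.53, adjusted p = 0.00130). The direct test of *Cox7c* between the knockouts did not pass (−0.28, adjusted p = 0.0984), while that of *Cox5a* did (−0.63).

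In *Clock*-/-, 1 of 8 nuclear subunits of complex III and 1 of 16 of complex V rose, beside 9.50% of all genes tested. Their median log2 fold changes were 0.24 and 0.16. In *Bmal1*-/-, *Uqcrc1*, a core protein of complex III, was at 106 to 126 TPM against 76.6 to 84.0 in WT (0.51, adjusted p = 4.52e-04). Of the catalytic head of the ATP synthase, *Atp5a1*, *Atp5b* and *Atp5c1* rose. *Atp5a1*, the α subunit, measured 896 to 968 TPM in WT wells and 1241 to 1347 in *Bmal1*-/- (0.47, SE 0.06, adjusted p = 1.39e-04), *Atp5b*, the β subunit, was at 903 to 988 and 1174 to 1269 TPM (0.34, adjusted p = 0.00121), and *Atp5c1*, the γ subunit, had 0.32 (adjusted p = 0.00378). *Atp5f1*, subunit b of the peripheral stalk, fell from 245 to 258 TPM to 164 to 186 (−0.50, adjusted p = 9.16e-04).

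*Atp5g1*, *Atp5g2* and *Atp5g3* encode the same mature c subunit of the proton ring. *Atp5g3* supplied most of their summed TPM, 61.8% to 66.1% in WT, 67.2% to 69.3% in *Bmal1*-/- and 70.2% to 71.6% in *Clock*-/-, and it rose in *Clock*-/- (0.36, adjusted p = 0.00784, lost in 13 of 19 alternative settings). *Atp5g1* gave 16.1% to 18.4% in WT, 10.7% to 12.1% in *Bmal1*-/- and 13% to 14.7% in *Clock*-/-. Its log2 fold change in *Bmal1*-/- was −0.45 (adjusted p = 0.0119), and −0.80 (adjusted p = 4.99e-04) after subtraction of the median of chromosome 11, 0.35. Each with its own chromosome's median subtracted, *Atp5g2* (0.48), *Cox6a1* (0.54) and *Ndufa7* (−0.50) passed in *Bmal1*-/-, and *Atp5f1* (−0.32), *Ndufa5* (−0.43) and *Ndufs7* (0.37) no longer passed. The 3 shares of each gene in a knockout lay outside its WT range, except those of *Atp5g2* in *Bmal1*-/-.

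Tested directly, 22 of 90 nuclear members were lower in *Bmal1*-/- than in *Clock*-/- and 7 were higher, or 24.4% and 7.78%, where 21.8% and 22.8% of all genes tested were lower and higher. The groups did not overlap for 46 members, as for 63.0% of all genes. With median-of-ratios scaling the split was 18 lower and 1 higher. The 36 nuclear subunits of complex I gave 11 of the lower ones (30.6%), and the 16 of complex V gave 4 of the higher ones (25.0%). These 4 were *Atp5a1*, *Atp5b*, *Atp5g2* and *Atp5o*, of which *Atp5b* passed in only 4 of 19 alternative settings. The 7 became 10 without *Clock*-/- library 2, 2 without *Bmal1*-/- library 1, and 3 or 4 without *Bmal1*-/- library 2 or 3, *Clock*-/- library 1 or 3, or WT library 2.

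*Mitochondrial members fell into 2 ranges of level.* The 13 genes summed to 46244, 53353 and 48048 TPM in WT cells, to 39560, 57314 and 53141 in *Bmal1*-/- cells, and to 57549, 49311 and 60002 in *Clock*-/-. The groups overlapped, and the sum in *Bmal1*-/- was 1.01 times that in WT (exact permutation p = 1.00) and in *Clock*-/- 1.13 times (p = 0.200). *Bmal1*-/- library 1 was below every WT library and library 2 above every WT library. Nearly all of this came from 7 genes. *mt-Co1*, the catalytic subunit of complex IV, was at 10570 to 20486 TPM over the 9 libraries, *mt-Nd1* at 6770 to 13582, *mt-Cytb*, the cytochrome b of complex III, at 6403 to 11486, *mt-Nd2* at 6090 to 9866, *mt-Nd5* at 3093 to 7669, *mt-Nd4* at 2255 to 3595 and *mt-Nd6*, the only member on the light strand, at 310 to 938.

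The other 6 were low although all these genes but *mt-Nd6* are transcribed together in long precursors. *mt-Co2*, *mt-Co3*, *mt-Atp6*, *mt-Atp8* and *mt-Nd4l* were at no more than 4.76 TPM in any library and *mt-Nd3* was at 15.2 to 100 TPM. These 6 are the genes that lie wholly inside a copy of the mitochondrial genome in the nuclear reference. Bases 6390 to 11042 of the mitochondrial sequence match chr1:24611535-24616188 over 4654 aligned bases at 99.936% identity, with 2 mismatches and 1 gap. The pseudogenes annotated in the copy were at 0 to 9.70 TPM. Reads of 75 bases from identical stretches align equally well to both places, and how such reads were counted is not given in the sources used here. The part of the copy in the low values was not tested. It covers 31.3% of *mt-Co1*, 63.6% of *mt-Nd4* and none of the other 5 genes of high level.

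A 75-base window of *mt-Co3* (chrM:8907-8981 and the minus strand of chr1:24613597-24613671) is shown because a read's length of both copies has 0 differences.

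mt-Co3 mitochondrial: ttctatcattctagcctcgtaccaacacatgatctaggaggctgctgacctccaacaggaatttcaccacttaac
mt-Co3 chromosome 1 copy: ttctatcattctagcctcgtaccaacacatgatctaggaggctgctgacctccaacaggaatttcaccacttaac

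*mt-Nd3* is the one wholly covered gene with a difference, T9461C, counted from 1 at the start of the mitochondrial reference and given as the mitochondrial base, the position and the base of the copy. The windows at chrM:9424-9498 and the minus strand of chr1:24613080-24613154 have it in capitals.

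mt-Nd3 mitochondrial: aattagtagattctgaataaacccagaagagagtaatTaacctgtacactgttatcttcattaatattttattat
mt-Nd3 chromosome 1 copy: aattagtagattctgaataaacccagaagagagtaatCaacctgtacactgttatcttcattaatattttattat

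**Figure D5:**
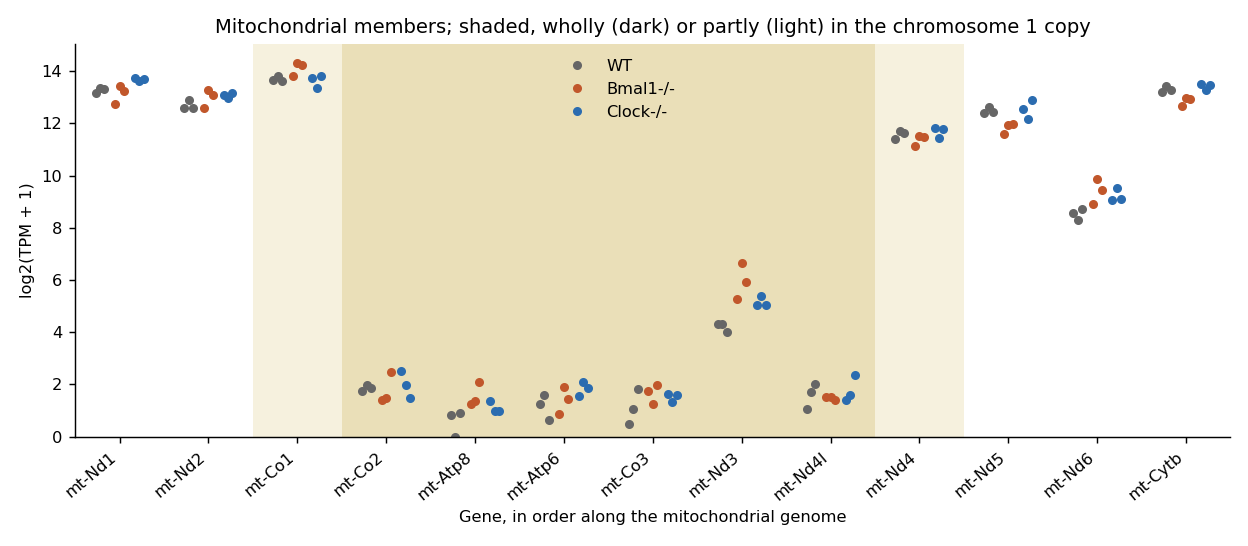
Level of the 13 mitochondrial members, as log2(TPM + 1), in gene order, with 1 point per library. The 6 genes wholly inside the chromosome 1 copy, in the dark band, are at or below 100 TPM and the other 7 at or above 310 TPM in every library.

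In *Bmal1*-/- cells, 2 mitochondrial members rose and 1 fell, where 39.4% of all genes tested passed. In *Clock*-/- cells limma called 0 of 13, beside 23.9% of all genes tested. At an unadjusted p under 0.05, 4 members were higher and 0 lower in limma. The share of all genes at that threshold is not given, so this count is a description. Fitted on WT and *Clock*-/- libraries alone, limma called 1. *mt-Nd3* measured 18.7, 19.1 and 15.2 TPM in the WT libraries, against 37.7, 100 and 59.6 in *Bmal1*-/- cells and 31.8, 40.6 and 31.9 in *Clock*-/- cells. All knockout libraries were above WT, with 1.74 in *Bmal1*-/- (SE 0.28, adjusted p = 5.90e-04) and 0.94 in *Clock*-/- (adjusted p = 0.0262). How reads shared with the copy were assigned is not given, so the value is the TPM as counted.

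*mt-Nd6* lay at 375, 310 and 425 TPM in WT cells and 474, 938 and 700 in *Bmal1*-/- (0.88, SE 0.23, adjusted p = 0.00866, lost in 11 of 17 alternative settings). The median log2 fold change over the 30 genes tested on chromosome M was 0.69 in *Bmal1*-/- and 0.63 in *Clock*-/-. Over the 13 mitochondrial members it was 0.24 and 0.38. *mt-Cytb* measured 9396, 11032 and 9931 TPM in WT cells and 6403, 8076 and 7773 in *Bmal1*-/- (−0.45, SE 0.11, adjusted p = 0.00654, lost in 9 of 17), and was also lower there than in *Clock*-/- (−0.56, adjusted p = 0.00185). *mt-Nd5*, which overlaps *mt-Nd6* by 14 bases on the opposite strand, lay at 5404 to 6308 TPM in WT wells, 3093 to 4044 in *Bmal1*-/- and 4587 to 7669 in *Clock*-/-. Its −0.64 in *Bmal1*-/- did not pass (adjusted p = 0.0111), and the direct test between the knockouts did (−0.69, adjusted p = 0.00684, lost in 12 of 17). *mt-Co1* had 0.42 in *Bmal1*-/- (adjusted p = 0.0409) and −0.06 in *Clock*-/-, and *mt-Nd1* had −0.14 and 0.42 (neither passed).

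Other genes of the pathway were read from lists. The counts of each list, here and below, stand beside the shares over all genes tested. Of all genes tested, 18.4% rose and 21.0% fell in *Bmal1*-/-, and 9.50% rose and 14.4% fell in *Clock*-/-. Of 7 electron carriers tested, 2 fell in *Bmal1*-/-, and 1 rose and 1 fell in *Clock*-/-. *Cyc1*, the cytochrome c1 of complex III whose symbol the rule does not take, fell in both, from 447 to 474 TPM in WT to 297 to 322 in *Bmal1*-/- (−0.60, adjusted p = 3.20e-05) and 362 to 396 in *Clock*-/- (−0.27, adjusted p = 0.00636). *Cycs*, the mobile cytochrome c, fell in *Bmal1*-/- (−0.32).

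Of 12 further complex I assembly and quality factors, 2 rose and 3 fell in *Bmal1*-/- and 4 rose and 2 fell in *Clock*-/-. *Tmem126a* fell in *Bmal1*-/- (−0.86) and rose in *Clock*-/- (0.90), from 28.8 to 32.0 TPM in WT to 13.9 to 17.7 and 52.3 to 60.6. *Tmem126b*, an assembly factor of the membrane arm, went the same ways (−0.40 and 0.65), and *Tmem186* the opposite ways (0.58 and −0.44). Of 37 assembly factors of complexes II to V, 6 rose and 6 fell in *Bmal1*-/- and 8 rose and 2 fell in *Clock*-/-. *Cox20*, a chaperone of COX2, fell in *Bmal1*-/- (−1.22), *Taco1*, a translational activator of *mt-Co1*, rose there (0.91), and *Higd1a* rose most in *Clock*-/- (1.33), with 34.9 to 47.6 TPM in WT and 94.8 to 114 in *Clock*-/-.

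Genes that keep, read and translate mitochondrial DNA were counted beside the shares over all genes tested, 18.4% up and 21.0% down in *Bmal1*-/- and 9.50% up and 14.4% down in *Clock*-/-. Of 18 maintenance and transcription genes, 5 rose and 4 fell in *Bmal1*-/- and 0 passed in limma in *Clock*-/-. In *Clock*-/- 4 were higher and 0 lower at an unadjusted p under 0.05, a threshold for which the share of all genes is not given. *Polrmt*, the mitochondrial RNA polymerase, rose from 14.5 to 18.2 TPM to 28.3 to 31.5 (0.82), while *Ssbp1*, the single-strand DNA-binding protein, fell (−0.94). Of 18 RNA processing and stability genes, 2 rose and 3 fell in *Bmal1*-/- and 2 rose in *Clock*-/-, with *Fastkd2* at −0.90 and *Hsd17b10*, a subunit of mitochondrial RNase P, at 0.71 in *Bmal1*-/- and 0.50 in *Clock*-/-. Of 77 mitochondrial ribosomal protein genes tested, 16 rose and 17 fell in *Bmal1*-/- and 11 rose and 3 fell in *Clock*-/-, and their summed TPM was 5369 to 5592 in WT cells, 5866 to 6161 in *Bmal1*-/- cells and 5749 to 6963 in *Clock*-/- cells. Of 78 cytosolic ribosomal protein genes, 10 rose and 11 fell in *Bmal1*-/- and 1 rose and 4 fell in *Clock*-/-.

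Nuclear regulators of respiratory genes had the highest median of the lists in *Bmal1*-/-, 0.41 over 18 genes, of which 6 rose, while 3 rose and 1 fell in *Clock*-/-. *Esrra*, a nuclear receptor that drives respiratory genes, rose in both knockouts, from 31.0 to 31.8 TPM in WT to 56.3 to 64.5 in *Bmal1*-/- (0.89) and 41.8 to 46.5 in *Clock*-/- (0.49). Its relative *Esrrg* rose in *Bmal1*-/- (1.08) and fell in *Clock*-/- (−1.22). *Ppargc1a*, their coactivator, rose in *Clock*-/- (0.70) and had 0.49 in *Bmal1*-/- (adjusted p = 0.0103).

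Of 10 carriers of adenine nucleotides, phosphate and protons, 1 rose and 2 fell in *Bmal1*-/- and 2 rose in *Clock*-/-. *Vdac1*, the main pore of the outer membrane, measured 336 to 356 TPM in WT cells and 684 to 695 in *Bmal1*-/- (0.98). *Ucp2*, an uncoupling protein family member, lay at 24.1 to 27.9 TPM in WT cells, 18.3 to 20.4 in *Bmal1*-/- (−0.39) and 101 to 125 in *Clock*-/- (2.14). Of 19 tricarboxylic acid cycle genes, 4 rose and 5 fell in *Bmal1*-/- and 5 rose in *Clock*-/-, with *Pcx*, pyruvate carboxylase, at 0.66 and *Ogdh* at 0.57 in *Bmal1*-/-.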

How the data were processed

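RNA-seq of 3 WT, 3 *Bmal1*-/- and 3 *Clock*-/- β-TC6 libraries (poly(A)-selected, directional kit) was deposited as a table of TPM, which the authors made from STAR 2.5.0 alignments to mm10 with GENCODE annotation and featureCounts 1.5.3. How TPM was computed is not given in the sources used here. In the annotation, 12 nuclear members share over 10% of their exon bases with another gene, among them *Ndufb11*, *Ndufb5*, *Cox5a*, *Cox6a2* and *Ndufaf2*. How reads from such stretches were assigned is not given either. The authors' DESeq2 1.22.1 comparisons hold fold changes and p-values and were not used. Symbols came from GENCODE vM21 for 20499 of 20599 identifiers. Genes reaching 1 TPM in 3 or more libraries were kept. Their values, as log2 after adding 1, went into a limma 3.58.1 model of the 3 genotypes (R 4.3.3, all 9 libraries, variance trend) with Benjamini–Hochberg adjustment and a threshold of 0.01, and the model was tested on simulated data. Sums were compared by exact permutation tests.

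THRAP3 peaks were called by the authors with HOMER in each library (Bowtie2 2.2.4). The score of a peak and its signal, scaled tags per peak, are deposited values. Positions and scores were used. Promoters are RefSeq, GRCm38.p6, matched for 72 of 90 nuclear members. The mitochondrial copy was found with BLAST 2.17.0 on GRCm38.p6.

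Members and lists were chosen with earlier results of these data known. Named are all mitochondrial members, the 8 largest passing rises and falls per knockout, members passing with opposite signs, the 2 members of highest TPM of each complex, isoforms with their partners, and the 2 largest passing changes per knockout of each other list. *Ndufv3*, *Ndufs4*, *Ndufv2*, *Ndufb5*, *Cox5a*, *Atp5c1*, the neighbours, *Atp5o* and the further assembly factors were chosen after their values were seen. Alternatives were other pseudocounts, filters, scalings, fits, a replicate block and leaving out each library. No intervals are given, as TPM keeps no counts. eCLIP and input libraries were not used here. Results of 1 member on its own are not reported here.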

Additional observations from a re-analysis of the deposited data

Results flagged for a closer look

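The direct test between *Bmal1*-/- and *Clock*-/- libraries (limma, Benjamini–Hochberg adjustment over 15031 genes) passed with a difference of more than 1 on the log2(TPM + 1) scale for the 5 members below, all lower in *Bmal1*-/-, where 14.5% of all genes tested passed with such a difference in either direction. They were *Cox6a2* (−2.88, adjusted p = 5.37e-08), *Cox4i2* (−1.80, adjusted p = 1.27e-04), *Ndufaf4* (−1.07, adjusted p = 2.31e-05), *Ndufc1* (−1.06, adjusted p = 3.98e-05) and *Cox7b* (−1.05, adjusted p = 7.44e-05). Every *Bmal1*-/- library was below every *Clock*-/- library in each of the 5. Each passed under every alternative setting that could be fitted for it. *Cox4i2* entered the test only through its *Clock*-/- libraries, so its value is a description.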

How the results depend on the processing

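The cause of the changes below was not tested. The shares of all genes tested under the alternative fits of this section are not given, so the changes are not read as particular to the members. In *Bmal1*-/- the 14 nuclear rises became 25 when only the 2 groups compared were fitted and 9 without the trend, and the 7 falls became 16 in the 2-group fit. The 2 mitochondrial rises became 1 without a filter, with median-of-ratios scaling, with the replicate block, in the 2-group fit, without the trend and, an alternative chosen after seeing the data, over members not wholly inside the chromosome 1 copy. The 1 mitochondrial fall became 0 without a filter, with median-of-ratios scaling and with the block, and 2 with a mean TPM of at least 5 and in the 2-group fit. In *Clock*-/- the 21 nuclear rises became 12 with median-of-ratios scaling, 13 with the block, 11 in the 2-group fit and 13 without the trend. The 2 falls became 0 with median-of-ratios scaling and 1 without a filter, with a mean TPM of at least 5, with the block and in the 2-group fit, which also gave 1 mitochondrial rise instead of 0. Between the knockouts, the 7 nuclear members higher in *Bmal1*-/- became 1 with median-of-ratios scaling, 4 with the block, 2 in the 2-group fit and 3 without the trend, and the 2 mitochondrial members lower there became 0 without a filter and 1 with the block, in the 2-group fit and without the trend. With the better-scoring part of the peaks (scores at or above the median), the THRAP3 lists touched 0, 3, 11 and 5 members. These were 0%, 3.33%, 12.2% and 5.56% of members, beside 0.743%, 7.58%, 21.2% and 16.0% of all genes tested. Within 5000 bases WT list 2 touched 14 members (15.6%), beside 18.2% of all genes tested.

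Leaving out 1 library at a time, nuclear rises and falls ranged from 8 to 24 and 5 to 16 in *Bmal1*-/-, from 9 to 41 and 0 to 3 in *Clock*-/-, and higher and lower members between the knockouts from 2 to 10 and 17 to 33. Mitochondrial rises and falls ranged from 1 to 3 and 0 to 2, 0 to 2 and 0 to 0, and 0 to 2 and 1 to 2. The log2 ratio of the nuclear sum stayed at 0.13 to 0.19 in *Bmal1*-/-, 0.22 to 0.42 in *Clock*-/- and −0.26 to −0.07 between them, and that of the mitochondrial sum at −0.10 to 0.17, 0.12 to 0.26 and −0.27 to −0.01.

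Replicate numbers did not pair the wells. Correlations of deviations were −0.208 to 0.0742 for the 9 pairs with the same number and −0.163 to 0.212 for the other 18. With the replicate block, 12 nuclear members rose and 5 fell in *Bmal1*-/-, 13 and 1 in *Clock*-/-, and 4 were higher and 20 lower between the knockouts. No named member that passed changed sign under any alternative, while 183 of its repeats no longer passed and 772 did. TPM keeps no depth, which limits what can be said of genes near 0.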
